A study of Mus musculus with 24 samples.

Results

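Open chromatin at the genes of the cytosolic ribosomal proteins was followed in mouse macrophages treated with interleukin 4 (IL4) or dexamethasone (Dex). The set holds 298 of 144411 ATAC-seq peaks, assigned to 55 genes. A peak belonged to it when the gene given in the authors' comparison table was named Rpl or Rps followed by a digit, with pseudogenes and the S6 kinases left out. That rule took 165 peaks. A further 133 peaks that the table leaves out were added because the nearest transcription start site (TSS) listed there, within 50 kb of the middle of the peak, belonged to such a gene. Of the 298, 51 peaks of 51 genes had their middle within 1 kb of the TSS and are called promoter peaks below, out of 14355 promoter peaks in all. The farthest of the 51 lay 382 bases from its TSS, and the nearest of the other 247 lay 1052 bases away. The set serves as a housekeeping contrast for the fall of promoter accessibility under IL4.

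The macrophages were grown for 5 days from the bone marrow of male C57BL/6 mice aged 8 to 10 weeks. KO cells were LysM-Cre+/+; GRIP1fl/fl, and WT cells were LysM-Cre+/+; GRIP1wt/wt, so both genotypes carried the recombinase, which LysM drives in myeloid cells. GRIP1 is a coactivator that nuclear receptors, the glucocorticoid receptor among them, bind. Each genotype was given 10 ng/ml IL4, 100 nM Dex or vehicle, with 4 libraries in each of the 6 groups. Treatment lasted 24 hours by the titles, and 25 hours by another label of the vehicle samples. Whether the 4 libraries of a group stem from different mice is not labelled, so p-values measure the spread between libraries, which may be technical.

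A ribosome is built from ribosomal RNA and a fixed set of proteins, those of the large subunit (Rpl genes) and of the small subunit (Rps genes). It needs them in equal number, their genes are active in all cell types, and many of their mRNAs start with a run of pyrimidines that ties translation to mTOR signalling. ATAC-seq counts fragments cut by a transposase where DNA is not packed, so a promoter peak reports how open the start of a gene is, not how much mRNA it makes.

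The RefSeq promoter table (GRCm38.p6, the sequence build that mm10 names) held an entry for 36 of the 51 promoters, and 6 are printed here. They are 4 with large falls under IL4 in WT cells (Rps2, Rpl34, Rps10, Rpl27a) and the pair with the largest rises under Dex in WT cells (Rpl5, Rps9). Each runs 5′ to 3′ from 70 bases before the TSS to the 20 bases that begin there. Capitals mark the letters searched for, on both strands except for CTTTNC (N any base) and TATAAA, which were read on the sense strand near the TSS.
Rps2 (chr17:24719993-24720082, plus strand): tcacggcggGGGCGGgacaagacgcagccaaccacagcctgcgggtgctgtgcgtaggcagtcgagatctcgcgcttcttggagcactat
Rpl34 (chr3:130730318-130730407, minus strand): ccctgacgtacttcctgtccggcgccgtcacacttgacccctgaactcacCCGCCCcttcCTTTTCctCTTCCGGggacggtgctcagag
Rps10 (chr17:27635225-27635314, minus strand): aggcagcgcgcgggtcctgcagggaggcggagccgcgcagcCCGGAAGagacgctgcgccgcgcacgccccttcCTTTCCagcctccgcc
Rpl27a (chr7:109519125-109519214, plus strand): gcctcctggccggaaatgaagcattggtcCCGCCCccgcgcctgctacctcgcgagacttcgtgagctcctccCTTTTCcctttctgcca
Rpl5 (chr5:107900458-107900547, plus strand): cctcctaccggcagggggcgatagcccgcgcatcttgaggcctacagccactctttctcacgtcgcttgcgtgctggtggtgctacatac
Rps9 (chr7:3703971-3704060, plus strand): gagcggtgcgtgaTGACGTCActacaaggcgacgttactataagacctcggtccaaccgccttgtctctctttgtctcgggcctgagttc

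In the whole 300-base entries (250 bases before the TSS and 50 after), the ETS motif CCGGAAG stood in 12 of the 36 ribosomal protein promoters (33.3%), against 9.12% of the 27025 genes in the table. The GC box GGGCGG stood in 26 of 36 (72.2%), against 35.9%. In 22 further ribosomal protein promoters that the name rule does not take, described below, ETS letters stood in 10 (45.5%) and the GC box in 10 (45.5%). The cAMP response element TGACGTCA stood in 3 of 36 (8.33%), against 1.88%. CTTTNC, with N any base, stood on the sense strand between 20 bases before and 30 after the TSS in 7 of 36 (19.4%), against 5.89%. Whether a match lies in a pyrimidine run or within the mRNA was not checked. A STAT palindrome (TTC and GAA with 4 bases between) stood in 4 of 36 (11.1%), against 6.99%, and a glucocorticoid receptor palindrome (GNACA and TGTNC with 3 bases between) in 0 of 36, against 0.463%. TATAAA stood in 1 of 36 (2.78%) between 40 and 10 bases before the TSS, against 2.3%. The YY1 letters AAGATGGCG stood in 2 (5.56%, against 1.49%) and the NRF1 letters (GCGCA followed by TGCGC) in 1 (2.78%, against 0.977%). CTTTNC and the reverse strand of the ETS letters can share a base. These are matches of letters, not sites shown to be bound.

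Libraries held 5820149 to 21939330 counts in peaks, the fewest in WT Dex replicate 2. Ncoa2, which encodes GRIP1, had a promoter peak of 72.0 to 94.9 CPM in KO libraries, against 71.3 to 101 CPM in WT libraries. Of 21 tested peaks listed under it, 2, 3 and 5 differed between KO and WT with vehicle, Dex and IL4. The labels do not say which part of the gene is lost, so this does not check the deletion. The median ribosomal protein promoter peak held 342 counts per library and the median peak of the set away from promoters 29.5. Of 10 macrophage markers 9 had a promoter peak, with summed levels of 227 to 321 CPM (counts scaled to a common library size) over the 24 libraries. Promoter peaks were present for 4 of 8 neutrophil markers (16.3 to 39.5 CPM summed), 3 of 7 B cell markers (6.43 to 11.9), 1 of 9 T and NK cell markers (8.49 to 26.1), 4 of 7 dendritic cell markers (25.9 to 35.9) and 1 of 7 fibroblast markers (2.46 to 7.08). The macrophage level was 227 to 244 CPM in WT IL4 and 287 to 321 in WT Dex libraries, against 258 to 285 in WT vehicle libraries. In KO cells all IL4 libraries, from 233 CPM, lay below the lowest vehicle library, while Dex libraries (260.0 to 303) overlapped vehicle (251 to 281). Single markers moved apart, so the sum does not stand for the number of macrophages. Among those of smallest adjusted p with IL4, a Mertk promoter peak rose in each genotype (1.46 in KO, 1.27 in WT). Fcgr1 (−0.998) and Spi1 (−0.47) fell in KO cells, and Spi1 (−0.57) and Cd68 (−0.37) in WT cells. The neutrophil level was 29.2 to 39.5 CPM in KO Dex and 28.9 to 34.7 in WT Dex libraries, against 16.3 to 29.9 in KO vehicle and 18.5 to 24.7 in WT vehicle libraries, and 1 of its 4 peaks, that of S100a8, was called higher with Dex in each genotype. The B cell level was 7.25 to 8.94 CPM in KO IL4 and 7.94 to 8.94 in KO Dex libraries, against 9.35 to 11.6 in KO vehicle libraries. In WT cells it overlapped, at 6.43 to 10.1 with IL4 and 8.49 to 10.1 with Dex, against 9.6 to 11.9 with vehicle. The dendritic cell level was 32.0 to 35.9 CPM in KO Dex libraries, against 27.7 to 31.4 in KO vehicle libraries. WT Dex (29.8 to 34.5) and WT vehicle libraries (28.8 to 31.4) overlapped. The T and NK cell level, which rests on Klrb1c alone, was 18 to 25.4 CPM in KO IL4 libraries and 22.1 to 26.1 in WT IL4 libraries. It was 11.0 to 12.1 in KO vehicle and 9.99 to 13.6 in WT vehicle libraries. The fibroblast level, that of Pdgfrb alone, was 4.93 to 5.95 CPM in KO IL4 and 5.3 to 7.08 in WT IL4 libraries. It was 2.63 to 4.45 in KO vehicle and 2.46 to 2.89 in WT vehicle libraries. The part of these cell types in the IL4 and Dex results was not tested.

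Ribosomal protein promoters were among the more open ones. Their median level was 32.4 CPM (range 1.37 to 80.0 over 51 peaks, means of 24 libraries), against 16.8 CPM for all promoter peaks and 2.85 CPM for all tested peaks. Peaks are not of 1 length: the median was 983 bases in the 51 and 872 bases in all promoter peaks. The 26 promoters of large subunit genes had a median of 27.2 CPM and the 19 of small subunit genes 34.0 CPM. The highest of the 51 was Rpl13a at 80.0 CPM, whose protein also takes part in translational silencing of inflammatory mRNAs in myeloid cells. Rps21 (73.9), Rps29 (62.2), Rpl27 (55.8) and Rpl30 (54.3) came next. The 3 lowest were the X-linked Rps4x at 12.0 CPM and 2 gene copies, Rps4l at 1.82 and Rpl37rt at 1.37 CPM.

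Under IL4 the ribosomal protein promoters became less open in both genotypes. Their summed level was 1395, 1412, 1442 and 1487 CPM in KO IL4 libraries, against 1578, 1681, 1708 and 1769 in KO vehicle libraries. In WT cells it was 1444, 1436, 1448 and 1478 CPM with IL4, against 1737, 1742, 1683 and 1691 with vehicle. In both genotypes every IL4 library lay below every vehicle library. In bulk libraries fewer cells with an open promoter and less opening per cell cannot be told apart.

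A peak was called when its adjusted p (edgeR, Benjamini-Hochberg over 130103 tested peaks) was below 0.05. In KO cells 36 of the 51 promoters fell with IL4 and 0 rose, at a median log2 fold change of −0.24. The backgrounds there were 36.2% lower and 5.64% higher over all promoter peaks, with a median of −0.17, and 13.9% lower and 17.0% higher over all tested peaks. In WT cells 33 of 51 fell and 0 rose, at a median of −0.23. All promoter peaks gave 43.0% lower and 6.29% higher with a median of −0.21, and all tested peaks 16.1% lower and 19.3% higher. The libraries of 32 of the 51 did not overlap between WT IL4 and vehicle (IL4 lower), where 41.3% of all promoter peaks did not. Promoters of the members' level were called lower more often than promoters as a whole. Among promoter peaks of 22.4 to 39.5 CPM, the middle range of the members, 19 of 25 members (76.0%) and 55.0% of all 2799 were called lower in KO cells. In WT cells these shares were 16 of 25 (64.0%) and 62.3%.

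**Figure D1:**
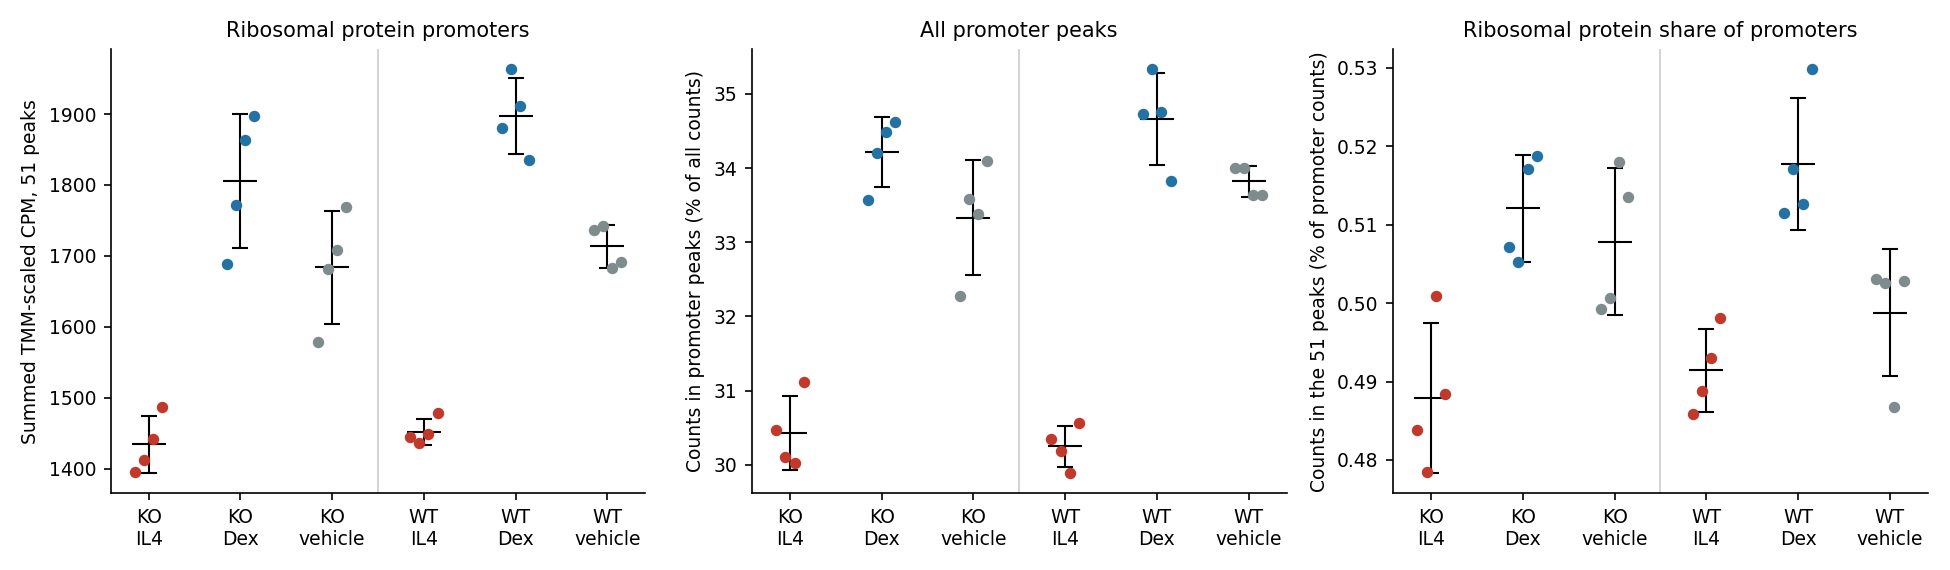
Left, summed TMM-scaled CPM of the 51 ribosomal protein promoter peaks; middle, counts in all promoter peaks as % of all counts; right, counts in the 51 peaks as % of promoter counts. Points are libraries, lines and bars the mean and SD of 4, and no axis starts at 0. IL4 libraries are lowest in the left and middle panels, while on the right the WT IL4 libraries (0.486% to 0.498%) overlap WT vehicle (0.487% to 0.503%).

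The fall was shared by both subunits. Of the 26 large subunit promoters 22 fell in KO cells (median −0.26) and 18 in WT cells (median −0.23). Of the 19 small subunit promoters 12 fell in KO cells (median −0.24) and 14 in WT cells (median −0.26). No test of a difference between the subunits was made.

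Rps2, a small subunit protein near the mRNA entry channel, had the largest called fall in WT cells. Its promoter peak (chr17:24719590-24720495, over the start of the gene) had 33.0, 35.7, 34.2 and 39.0 CPM in KO IL4 libraries, against 39.7, 44.4, 40.7 and 46.7 CPM in KO vehicle libraries. In WT cells the IL4 libraries had 35.3, 36.0, 34.2 and 33.2 CPM, against 46.2, 44.8, 48.2 and 43.7 CPM in WT vehicle libraries. The IL4 and vehicle libraries did not overlap in either genotype. The log2 fold change was −0.28 ± 0.07 in KO (SE; adjusted p = 0.00168) and −0.40 ± 0.07 in WT (adjusted p = 3.56e-06).

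Rpl34, a large subunit protein, had 32.2, 30.7, 35.5 and 34.3 CPM at its promoter (chr3:130729503-130730757) in KO IL4 libraries, against 40.0, 40.7, 40.0 and 46.3 CPM in KO vehicle libraries. WT IL4 libraries had 30.7, 33.1, 29.8 and 35.1 CPM, against 40.6, 43.8, 42.9 and 40.8 CPM in WT vehicle libraries. Here too every IL4 library was below every vehicle library of its genotype. The log2 fold change was −0.34 ± 0.07 in KO (adjusted p = 0.000124) and −0.38 ± 0.07 in WT (adjusted p = 9.39e-06).

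Rps13, a small subunit protein, fell most among the called promoters in KO cells. It had 28.2, 24.3, 27.3 and 28.1 CPM in KO IL4 libraries, against 34.1, 34.6, 35.7 and 37.4 CPM in KO vehicle libraries. The WT IL4 libraries held 26.5, 29.4, 30.3 and 27.3 CPM, against 34.9, 34.6, 34.9 and 38.4 CPM in WT vehicle libraries. The groups were apart in both genotypes, at −0.40 ± 0.07 in KO (adjusted p = 5.9e-06) and −0.33 ± 0.07 in WT (adjusted p = 0.000102). Further falls in WT cells were those of Rps10 (−0.36), Rpl27 (−0.36), Rpl27a (−0.35) and Rps15a (−0.34), and in KO cells those of Rpl8 (−0.37), Rps16 (−0.37) and Rpl36 (−0.36). The WT calls of Rps2, Rpl34, Rps13, Rps10, Rpl27, Rpl27a and Rps15a each held when any 1 library was left out.

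Rpl13a, the most open of the 51 promoters, had 74.0, 72.8, 70.5 and 75.8 CPM in KO IL4 libraries, against 74.6, 78.4, 79.0 and 88.5 CPM in KO vehicle libraries, which overlap. With IL4, WT libraries had 71.2, 68.7, 74.6 and 70.9 CPM, against 84.8, 77.9, 87.1 and 82.7 CPM in WT vehicle libraries, with no overlap. The difference was not called in KO (−0.13 ± 0.06, adjusted p = 0.108) and was called in WT (−0.22 ± 0.06, adjusted p = 0.0028), though with loess scaling the WT value is 0.05. Without KO vehicle replicate 1 the KO value is −0.17 and called. Rpl5 and Rpl11, which bind Mdm2 when ribosome assembly is disturbed, were called lower in KO cells (−0.26 and −0.31), Rpl5 not without KO IL4 replicate 2 (−0.18) or KO vehicle replicate 2 (−0.23). In WT cells Rpl11 was called at −0.20 and Rpl5 was not, at −0.14. The Rpl11 call in WT is lost without any one of WT IL4 replicates 1, 2 and 4 or WT vehicle replicates 1 and 4, at −0.21 to −0.16. Rpl38, known for selective translation of Hox mRNAs in the mouse embryo, stood at −0.27 (called) in KO and −0.18 (not called) in WT. One library decides both: the KO call is lost without KO vehicle replicate 4 (−0.19), and WT is called without WT IL4 replicate 4 (−0.23) or WT vehicle replicate 3 (−0.24). Rps3 was called in both, at −0.25 in KO and −0.26 in WT.

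Of the 6 promoters of gene copies and of a non-subunit, 2 were called lower with IL4 in KO cells and 1 in WT cells. Rps4l, a copy of Rps4 whose peak lies inside Tmtc1, had 1.63, 1.89, 2.65 and 1.56 CPM in KO IL4 libraries, against 2.36, 1.56, 1.83 and 0.825 CPM in KO vehicle libraries. In WT cells the IL4 libraries had 1.74, 1.64, 2.45 and 1.21 CPM, against 1.54, 2.24, 1.5 and 2.16 CPM in WT vehicle libraries. The groups overlapped, and its +0.28 ± 0.25 in KO was the one positive value among the 51, not called. Rps19bp1, whose product binds Rps19 and is no ribosomal subunit, had −0.04 in KO and −0.12 in WT, neither called. Rpl37rt, a retrotransposed copy of Rpl37, had the largest estimate (−0.51 in KO, −0.63 in WT) at the lowest level and was not called in either.

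**Figure D2:**
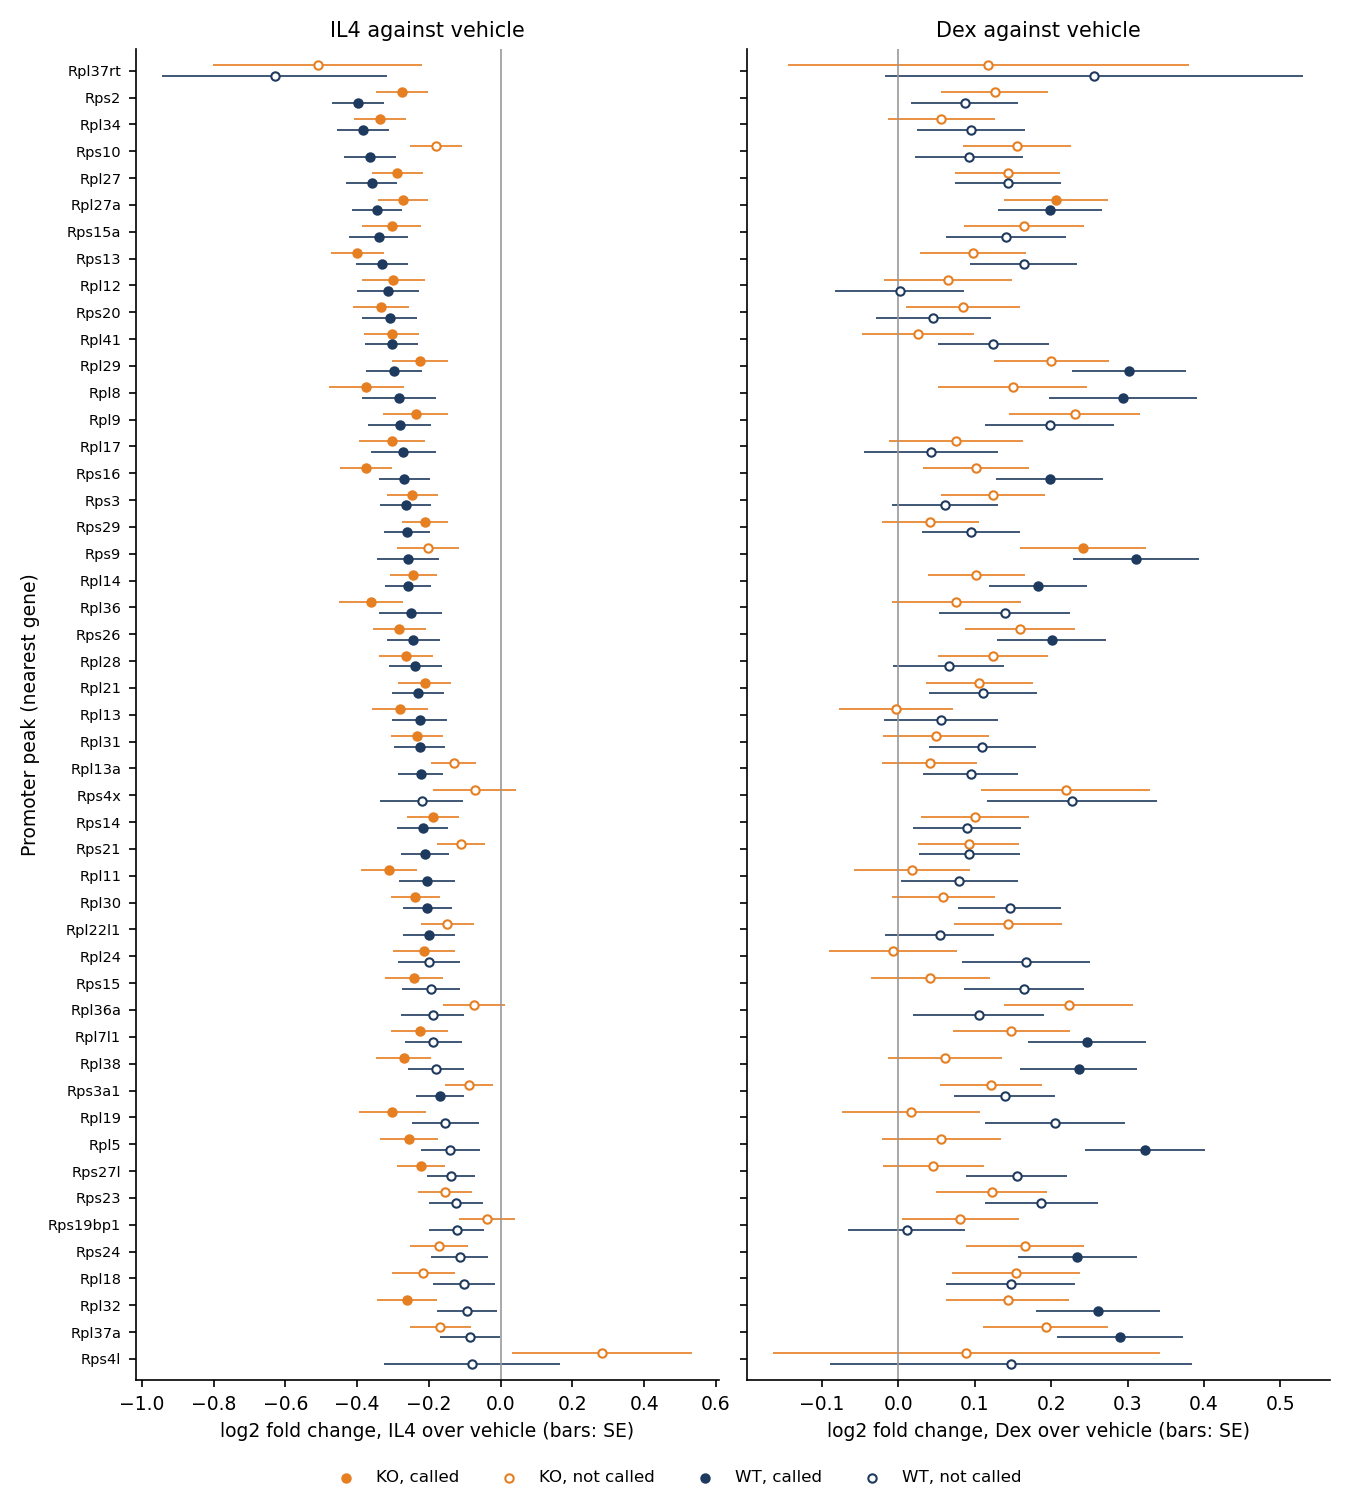
Log2 fold change with its SE of 49 of the 51 ribosomal protein promoter peaks, IL4 over vehicle (left) and Dex over vehicle (right), KO above WT in each row, filled where called. In WT cells all IL4 values drawn lie below 0 and all Dex values above it, and none goes past −0.63 or 0.32.

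Measured against other promoters, the IL4 fall was smaller. Promoter peaks of all genes took 30.02% to 31.12% of counts in KO IL4 libraries, against 32.27% to 34.1% in KO vehicle libraries, and 29.89% to 30.56% in WT IL4 libraries, against 33.64% to 34.0% in WT vehicle libraries. Within that smaller total, the 51 peaks held 0.479% to 0.501% of promoter counts in KO IL4 libraries, against 0.499% to 0.518% in KO vehicle libraries. In WT cells they held 0.486% to 0.498% with IL4, against 0.487% to 0.503% with vehicle. The ranges overlap in both genotypes. When libraries were scaled on promoter peaks, the median over all tested peaks moved to 0.15 in KO and 0.19 in WT. The members' median was then −0.08 in KO, with 3 of 51 called lower against 8.96% of all promoter peaks. In WT it was −0.02, with 5 of 51 called lower against 11.1%. With loess offsets, fitted to the trend of the ratio over mean level, the members' medians were −0.11 in KO and −0.07 in WT, with 9 and 6 called lower, beside medians of −0.07 and −0.08 for all promoter peaks. The share of all promoter peaks called with loess offsets is not given here. The members' median was below 0 under all 4 scalings.

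**Figure D3:**
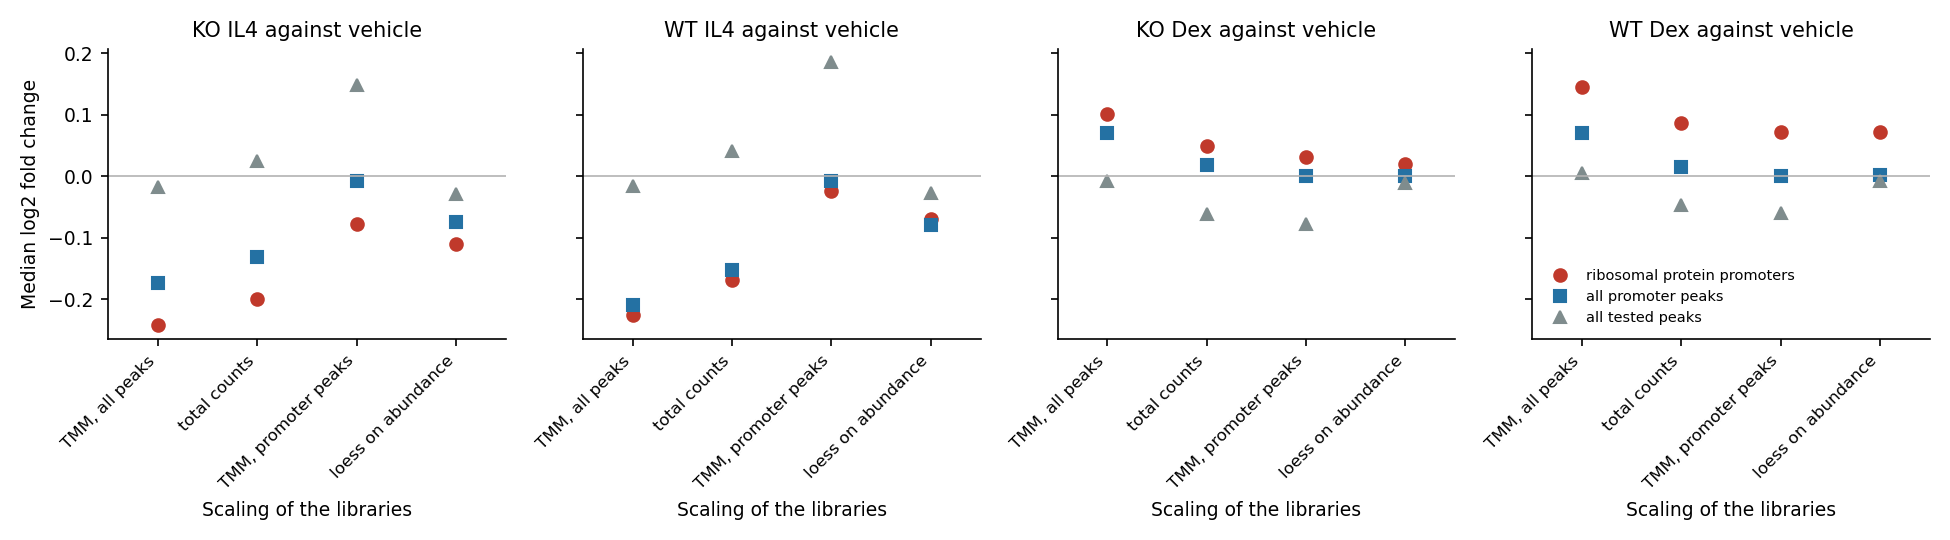
Median log2 fold change of the 51 ribosomal protein promoters, of all promoter peaks and of all tested peaks under 4 scalings, for IL4 and Dex in KO and WT. Under IL4 the ribosomal protein median lies below the promoter median in KO at every scaling and close to it in WT, and under Dex in WT it lies above it at every scaling (0.07 to 0.15).

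With libraries scaled on all tested peaks, genes that work with the ribosome moved the same way. In WT cells IL4 lowered 22 of 31 promoter peaks of ribosome biogenesis genes (median −0.25), led by Nmd3, the export adaptor of the large subunit, at −0.48, and Nolc1 at −0.44. It lowered 26 of 31 peaks of translation factors (median −0.28), led by Naca at −0.46, and 13 of 16 peaks of genes of mTOR and pyrimidine-tract mRNA control (median −0.27), with Rps6ka3 at −0.54 and Rheb, the activator of mTORC1, at −0.40. Mitochondrial ribosomal protein promoters fell in 29 of 55 cases (median −0.21), and other housekeeping genes in 21 of 29 (median −0.25), with Tpi1 at −0.52 and Actb at −0.42. Of 6 peaks of stalk and fusion ribosomal proteins that the name rule does not take, 4 fell (median −0.25), Rplp2 and Fau at −0.39 and −0.37. None of these peaks rose. In KO cells the falling peaks numbered 20 of 31, 25 of 31, 9 of 16, 27 of 55, 17 of 29 and 6 of 6, in the same order of lists, and again none rose. These counts stand beside the 36.2% (KO) and 43.0% (WT) of all promoter peaks given above. The median level of each list was above the 16.8 CPM of all promoter peaks. Among all promoter peaks of 22.4 to 39.5 CPM, 55.0% (KO) and 62.3% (WT) were called lower. Whether a list fell more often than promoters of its own level was not tested. Scaled on promoter peaks, 8.96% (KO) and 11.1% (WT) of all promoter peaks were called lower. The counts of the lists under that scaling are not given here.

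A further 22 promoter peaks of ribosomal protein genes by RefSeq start sites escape the name rule, 19 because the table leaves the peak out and its nearest listed TSS is not theirs, and 3 because the table names a neighbouring gene. They gave a median of −0.22 in KO with 17 called lower and 0 higher, and −0.21 in WT with 16 lower and 1 higher. Rps19, mutated in Diamond-Blackfan anaemia, stood at −0.16 in KO and −0.23 in WT, both called, at 90.7 CPM. Rps6, the substrate of the S6 kinases, was called in neither (−0.12 in KO and −0.18 in WT, adjusted p = 0.239 and 0.0638). Rps25, used by viral internal ribosome entry sites, was called at −0.18 and −0.19, Rpl22 at −0.24 and −0.27, and the X-linked Rpl39 at −0.27 and −0.21. None of Rps19, Rps25, Rpl22 and Rpl39 was called with loess offsets or when libraries were scaled on promoter peaks. With loess offsets Rps19 stood at 0.049 in KO and 0.058 in WT, and Rps25 at −0.011 in KO and 0.028 in WT. The peak called higher was that of Rpl10a. It had 45.8, 52.4, 49.2 and 53.1 CPM in KO IL4 libraries, against 41.3, 45.6, 45.9 and 48.6 CPM in KO vehicle libraries. WT IL4 libraries had 52.1, 59.2, 57.1 and 54.5 CPM, against 44.4, 47.7, 45.4 and 49.1 CPM in WT vehicle libraries. The WT groups did not overlap (0.26, called) and the KO groups did (0.14, not called). Rpl3 had no promoter peak, and Rps27a had 8 tested peaks away from its promoter and none at it.

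Dex had the opposite and smaller effect. The summed promoter level was 1689, 1772, 1864 and 1898 CPM in KO Dex libraries, which overlap the KO vehicle libraries given above, and 1881, 1963, 1912 and 1835 CPM in WT Dex libraries, all above the WT vehicle libraries. In KO cells 2 of 51 rose, Rps9 and Rpl27a (0.21), and 0 fell, at a median of 0.10. Leaving out 1 library gave 0 calls (without KO Dex replicate 4 or KO vehicle replicate 1), 1 (without KO Dex replicate 2 or 3 or KO vehicle replicate 2), 4 (without KO vehicle replicate 4) or 6 (without KO Dex replicate 1). The Rpl27a call is lost without any one of KO Dex replicates 2 and 4 and KO vehicle replicates 1 and 3 (0.15 to 0.21). Over all promoter peaks 6.87% were higher and 2.48% lower, and over all tested peaks 6.97% higher and 6.63% lower. In WT cells 14 of 51 rose and 0 fell, at a median of 0.15, where all promoter peaks gave 8.87% higher and 3.12% lower with a median of 0.07, and all tested peaks 8.56% higher and 8.08% lower. In 16 of 51 the WT Dex libraries all lay above vehicle, against 12.9% of all promoter peaks. The count of 14 became 4 when libraries were scaled on promoter peaks, where 4.06% of all promoter peaks were higher, 4 by total counts, 4 with loess offsets and 7 with DESeq2. In KO cells it was 0 under each of these 4. Single libraries weigh on it too: 4 promoters were called higher in WT cells without WT vehicle replicate 3, 9 without WT Dex replicate 1 or 3, and 10 without WT Dex replicate 2, the shallowest library. For total counts, loess offsets and DESeq2 no share of all promoter peaks is given here, so those counts do not set the members apart.

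Rpl5, the 5S RNA binding protein of the large subunit, had the largest rise in WT cells. Its promoter had 26.2, 26.1, 29.2 and 29.5 CPM in KO Dex libraries, against 25.4, 28.0, 29.2 and 24.5 CPM in KO vehicle libraries, which overlap. WT Dex libraries had 31.7, 31.9, 30.4 and 29.3 CPM, against 25.4, 26.7, 23.6 and 22.2 CPM in WT vehicle libraries, with no overlap. The log2 fold change was 0.06 ± 0.08 in KO (adjusted p = 0.709) and 0.32 ± 0.08 in WT (adjusted p = 0.00146). The difference between them, KO minus WT, was −0.27 ± 0.11 and not called (adjusted p = 1.0).

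Rps9, a small subunit protein, had 23.7, 25.0, 26.4 and 27.2 CPM in KO Dex libraries, against 19.5, 20.2, 26.6 and 21.3 CPM in KO vehicle libraries, where replicate 3 lies among the Dex libraries. WT Dex libraries had 25.8, 27.1, 27.2 and 27.1 CPM, against 21.3, 22.0, 19.4 and 23.6 CPM in WT vehicle libraries, with no overlap. It rose by 0.24 ± 0.08 in KO (adjusted p = 0.0362) and 0.31 ± 0.08 in WT (adjusted p = 0.004). The KO call is lost, at 0.19 to 0.23, without any one of KO Dex replicates 3 and 4 and KO vehicle replicates 1, 2 and 4. Rpl29 had 29.2, 28.7, 30.4 and 29.1 CPM in KO Dex libraries, against 23.0, 25.9, 27.3 and 25.8 CPM in KO vehicle libraries. WT Dex libraries had 32.2, 31.4, 30.8 and 32.1 CPM, against 24.7, 25.4, 26.6 and 26.3 CPM in WT vehicle libraries. Its Dex libraries lay above vehicle in both genotypes, at 0.20 ± 0.08 in KO (adjusted p = 0.0621) and 0.30 ± 0.08 in WT (adjusted p = 0.00182). The WT calls of Rpl5, Rps9 and Rpl29 held without any 1 library and when libraries were scaled on promoter peaks (0.25, 0.24 and 0.23).

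As a share of promoter counts the 51 peaks held 0.505% to 0.519% in KO Dex libraries, against 0.499% to 0.518% in KO vehicle libraries, and 0.512% to 0.530% in WT Dex libraries, against 0.487% to 0.503% in WT vehicle libraries. The WT ranges do not overlap and the KO ranges do. Among the other lists, WT Dex raised 4 of 31 peaks of ribosome biogenesis genes, 6 of 31 of translation factors, 4 of 16 of mTOR and pyrimidine-tract mRNA control, 2 of 55 of mitochondrial ribosomal proteins, 2 of 29 of other housekeeping genes and 0 of 6 of stalk and fusion proteins, and lowered none. KO Dex raised 3, 3, 2, 4, 0 and 0 peaks of these lists in the same order. Both sets of counts are with libraries scaled on all tested peaks. Over all promoter peaks, whose median level was below that of each list, 8.87% (WT) and 6.87% (KO) were higher. Beside these counts of 0 by edgeR, an unadjusted p below 0.05 was met by 1 peak of the stalk and fusion proteins in each genotype and by 4 of other housekeeping genes in KO cells.

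IL4 and Dex set side by side in WT cells gave the widest gap. With IL4 49 of 51 promoters were lower than with Dex and 0 were higher, at a median of −0.36, beside 55.4% lower and 7.1% higher over all promoter peaks (median −0.28) and 21.7% lower and 23.4% higher over all tested peaks. Of promoter peaks of 1 kb or more, whose median level was near that of the members, 75.4% were lower (median −0.32). All 45 true subunits were lower. The exceptions were Rps4l and Rps19bp1. Scaled on promoter peaks the count was 16 of 51 lower, against 15.6% of all promoter peaks, at a median of −0.09. The largest gaps among promoters above 10 CPM were those of Rpl29 (−0.60), Rpl8 (−0.58), Rps9 (−0.57) and Rpl27a (−0.54). This comparison shares its libraries with those against vehicle and adds no separate evidence.

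The 247 peaks of the set away from promoters moved in both directions. They lay a median of 14.9 kb and up to 323 kb from the TSS they were listed under, 99 of them inside another protein-coding gene by RefSeq, 140 in none and 8 in a ribosomal protein gene. A peak was tied to its gene by position alone, which does not tell whether it acts on that gene. After the filter on low counts 216 were tested. With IL4 49 rose and 22 fell in KO cells, and 49 rose and 26 fell in WT cells. These are 22.7% and 10.2% in KO and 22.7% and 12.0% in WT, near the 18.4% and 11.3% (KO) and 20.9% and 12.9% (WT) of all tested peaks away from promoters. Scaled on promoter peaks, 62 rose and 5 fell in KO cells and 64 rose and 11 fell in WT cells. That scaling also raised the median of all tested peaks, as given above. Its shares over all peaks away from promoters are not given here, so these counts do not set the members apart. The KO falls numbered 13 with DESeq2 and 12 without KO IL4 replicate 2. With Dex 7 rose (3.24%) and 19 fell (8.8%) in KO cells, beside 6.98% and 7.12% of all such peaks, and 9 rose (4.17%) and 26 fell (12.0%) in WT cells, beside 8.52% and 8.68%. The rises numbered 4 in KO cells without KO Dex replicate 4 and 5 in WT cells without WT Dex replicate 3. By DESeq2 they were 4 and 5, and the WT rises were also 5 when scaled by total counts or on promoter peaks. With IL4 against Dex in WT cells 64 were higher and 28 lower (29.6% higher, beside 25.3% higher and 17.7% lower of all such peaks). Scaled on promoter peaks 94 were higher and 7 lower, again with no background share given here. The 38 tested peaks more than 50 kb away, which all come from the authors' table, held 18 that rose with IL4 in KO cells (47.4%, against 27.4% of all tested peaks at that distance) and 17 in WT cells (44.7%, against 30.1%). With Dex none of the 38 rose and 8 fell (21.1%) in KO cells, beside 9.78% higher and 10.9% lower of all at that distance, and none rose and 11 fell (28.9%) in WT cells, beside 11.0% and 13.7%. Neighbouring peaks of 1 locus are not independent, and 8 of the 19 and 7 of the 26 Dex falls were listed under Rpl31.

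**Figure D4:**
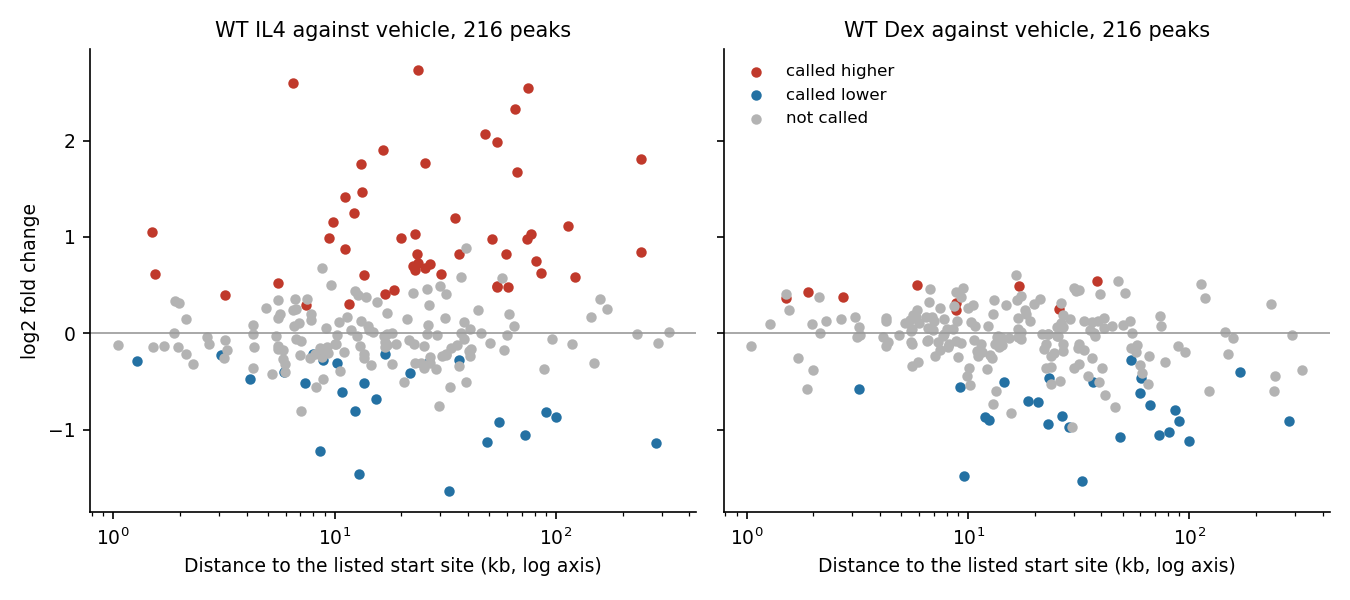
Log2 fold change with IL4 (left) and Dex (right) in WT cells of the 216 tested peaks away from promoters, by distance to the TSS they were listed under, on a log axis in kb. With IL4 most calls are rises, while with Dex no called rise passes 0.55 and most calls are falls.

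The 22 peaks listed under Rpl31 all lie inside its neighbours, 15 in Npas2 and 7 in Tbc1d8. The strongest, chr1:39292913-39293289 in Npas2, is 74.7 kb from the Rpl31 TSS. It had 9.78, 13.3, 10.8 and 12.0 CPM in KO IL4 libraries, against 3.85, 3.05, 3.01 and 2.47 CPM in KO vehicle libraries. The WT IL4 libraries held 12.2, 10.1, 12.8 and 10.5 CPM, against 1.61, 2.01, 1.39 and 2.78 CPM in WT vehicle libraries. All IL4 libraries were far above vehicle, with log2 fold changes of 1.91 ± 0.15 in KO (adjusted p = 6.67e-19) and 2.55 ± 0.17 in WT (adjusted p = 7.24e-24). Of the 20 tested peaks under Rpl31, 9 rose with IL4 in each genotype and 2 fell, while its promoter fell.

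Rpl36 showed both directions within its own locus. A peak 1.5 kb upstream of the listed TSS (chr17:56611449-56612329, within the RefSeq gene) had 19.3, 18.1, 18.4 and 16.6 CPM in KO IL4 libraries, against 7.83, 9.51, 9.03 and 6.69 CPM in KO vehicle libraries. With IL4, WT libraries had 14.3, 16.9, 17.3 and 15.0 CPM, against 8.07, 6.82, 7.15 and 8.55 CPM in WT vehicle libraries. With no overlap in either genotype it rose by 1.12 ± 0.11 in KO (adjusted p = 5.26e-14) and 1.05 ± 0.12 in WT (adjusted p = 1.43e-12). The promoter peak of Rpl36 fell in the same libraries, by 0.36 in KO and 0.25 in WT. Its call in WT is lost without any one of WT IL4 replicates 1 and 2 and WT vehicle replicate 4, at −0.22 to −0.19.

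One of the large ratios came from a weak peak. A peak 6.47 kb from the Rpl32 TSS, inside Efcab12, had 1.25, 2.72, 3.27 and 3.05 CPM in KO IL4 libraries, against 0.497, 0.142, 0.392 and 0.275 CPM in KO vehicle libraries. In WT cells the IL4 libraries had 1.9, 2.93, 2.75 and 2.61 CPM, against 0.307, 1.01, 0.32 and 0.103 CPM in WT vehicle libraries. The groups were apart, at 3.09 ± 0.37 in KO and 2.60 ± 0.35 in WT. Other large rises in WT cells were those of peaks inside Tmtc1 (listed under Rps4l, 2.33), Sppl3 (under Rpl37rt, 2.07) and Atg10 (under Rps23, 1.99).

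Of the falling peaks, one inside Lyn, a Src-family kinase gene of myeloid cells, 48.7 kb from the Rps20 TSS (chr4:3786696-3787153), fell with both agents. It had 7.96, 6.35, 7.08 and 5.32 CPM in KO IL4 libraries and 6.47, 5.23, 6.29 and 5.57 CPM in KO Dex libraries, against 10.8, 13.2, 9.94 and 13.7 CPM in KO vehicle libraries. The WT IL4 libraries held 7.19, 6.2, 6.83 and 5.49 CPM and WT Dex libraries 8.17, 5.72, 5.58 and 6.58 CPM, against 14.4, 14.0, 13.5 and 14.1 CPM in WT vehicle libraries. Both agents were below vehicle in every library. With IL4 it fell by 0.87 ± 0.12 in KO and 1.12 ± 0.12 in WT, and with Dex by 1.05 ± 0.12 in KO and 1.07 ± 0.12 in WT.

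Few peaks were called between the genotypes, in the set as over all tested peaks. No ribosomal protein promoter differed between KO and WT with vehicle, Dex or IL4 (edgeR, 0 of 51 each; 1, 1 and 0 at an unadjusted p below 0.05; DESeq2 0 each), beside 0.616%, 0.953% and 0.841% of all tested peaks. Over all promoter peaks 0.375%, 0.591% and 0.418% were called, so 0 of 51 does not set the members apart. The median KO minus WT difference was −0.02 with vehicle, −0.06 with Dex and −0.02 with IL4. Over all promoter peaks this median was −0.03, −0.03 and −0.001. With Dex 45 of the 51 differences lay below 0, beside 8704 of all 13874 promoter peaks. Neither the IL4 nor the Dex effect of a promoter differed between genotypes (0 of 51 each, with 0 and 1 at an unadjusted p below 0.05, and 0 with DESeq2), where 0.00231% and 0.0% of all tested peaks did. Among the 216 peaks away from promoters 1 differed with vehicle and 0 in the other 4 tests, by edgeR and by DESeq2, with 15, 16 and 10 at an unadjusted p below 0.05 for vehicle, Dex and IL4, and 8 and 10 for the IL4 and Dex interactions. The exception lies in no coding gene, 26.6 kb from the Rps3a1 TSS. It had 11.7, 11.0, 9.81 and 9.9 CPM in KO vehicle libraries, against 11.8, 15.4, 16.6 and 16.4 CPM in WT vehicle libraries. The groups do not overlap, though WT replicate 1 lies next to the highest KO library (−0.49 ± 0.12, adjusted p = 0.0126). Without KO vehicle replicate 3 or 4, or WT vehicle replicate 3 or 4, 0 peaks of the set were called.

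The IL4 effects of the genotypes, which share no library, had the same sign at 50 of 51 promoters. So did 12106 of all 13874 tested promoter peaks. The 27 promoters called lower in both are 27 of the 36 KO calls and 81.8% of the WT calls, beside 84.5% and 71.7% over all promoter peaks called in the same direction. Over the 51 promoters the 2 sets of effects had a Pearson correlation of 0.57, over all promoter peaks 0.82, and over the 216 other peaks 0.91, given as descriptions across peaks. With Dex 49 of 51 promoters had the same sign. In the authors' deposited table, which lists 26 of the promoters, IL4 lowered 19 in KO and 20 in WT cells, and Dex raised 1 in KO and 5 in WT cells, at an adjusted p below 0.05. The shares over all promoter peaks of that table are not given here.

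**Figure D5:**
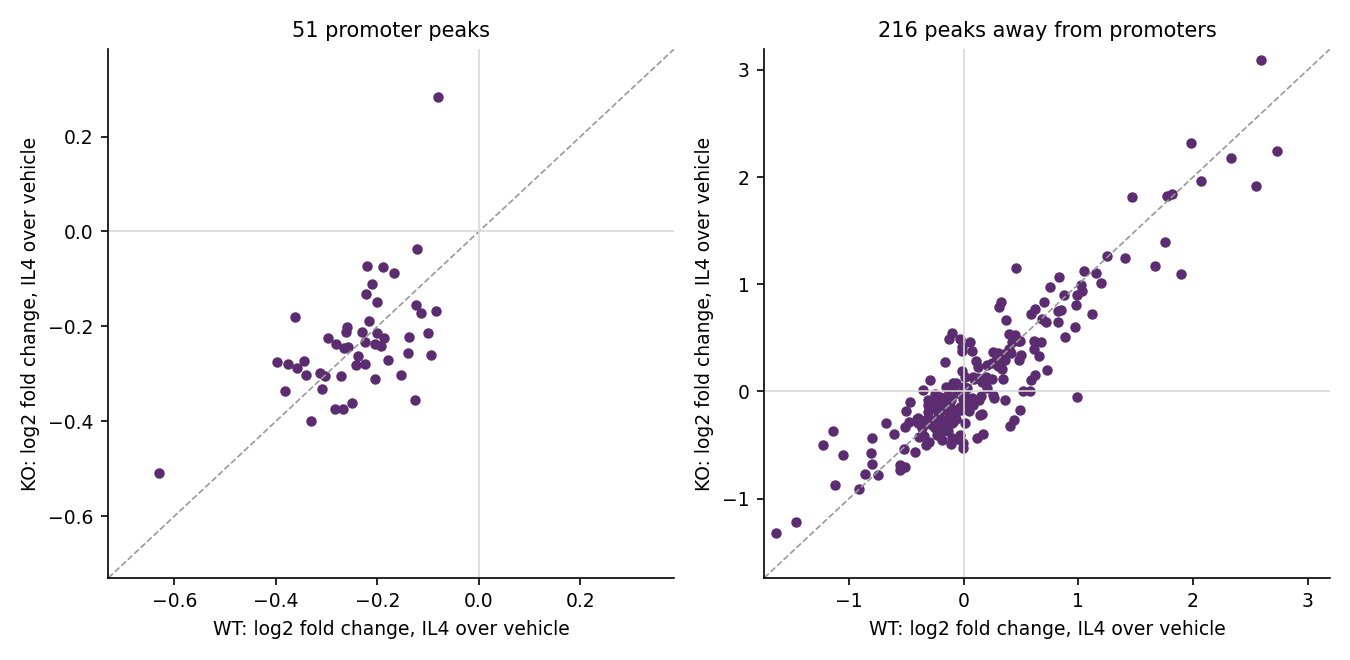
IL4 effect (log2 fold change over vehicle) in KO, upwards, against that in WT, along the horizontal axis, for the 51 promoter peaks (left) and the 216 tested peaks away from promoters (right); the dashed line marks equal effects. At 50 of 51 promoters both values are below 0, and the exception at upper right is Rps4l.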

How the data were processed

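ATAC-seq was done on 24 libraries of mouse bone marrow macrophages, grouped by their titles. The authors deposited whole-number read counts per peak without normalisation, and a table of the authors' log2 fold changes and p-values with the nearest gene of 71942 peaks, used for gene names and as a check of scale. Among tools, the submitters' processing notes list edgeR, featureCounts, MACS2, SAMtools, Bowtie2 and fastp, and the build mm10, with no settings.

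Counts were fitted in R 4.3.3 with edgeR 4.0.16: filterByExpr (130103 peaks tested, 14308 removed, among them 31 of the set), TMM factors (0.935 to 1.07), 1 robust quasi-likelihood model of the 6 group means over all libraries, F tests, and Benjamini-Hochberg adjustment at 0.05. Each SE was taken as the absolute log2 fold change divided by the root of F, and levels as CPM after TMM scaling. The fit was also run on simulated counts in which a small part of the promoter peaks was raised or lowered in equal number. That setting holds no broad fall of promoters, so it does not test the scaling. Depth ran from 5820149 to 21939330 counts per library, and the number of fragments limits weak peaks most.

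Alternatives were scaling by total counts, TMM on promoter peaks, loess offsets, DESeq2 1.42.0, no filter, a replicate block, table peaks only, and each library left out in turn. The members and gene lists were chosen with earlier results of these data known, so a list is described by its counts and median. Genes named are a fixed core of ribosomal proteins, the 8 called peaks with the largest change per treatment comparison and direction (promoters and others ranked apart), the 5 per genotype comparison, the 5 highest and 3 lowest promoters, and the paralogs. Lists name up to 3 genes by smallest adjusted p. Sequences came from RefSeq, and a genome was not used here. Some results for single genes are not reported here, while counts and medians cover the full set.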

Additional observations from a re-analysis of the deposited data

Results flagged for a closer look

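Among 4 libraries of a group, 6 values stood far from their neighbours by Dixon's ratio, the gap to the nearest library over the range of the group, past its 95% critical value. In all 126 groups were examined, and chance alone marks about 5% of them. In WT vehicle, replicate 3 held the lowest ribosomal protein share of promoter counts (0.487%, ratio 0.97). In WT IL4, replicate 4 held the highest share of all counts in the 51 promoters (0.152%, ratio 0.958). At single peaks, KO vehicle replicate 4 was high at the Rpl34 promoter (46.3 CPM, ratio 0.886), WT vehicle replicate 4 was high at the Rps13 promoter (38.4 CPM, ratio 0.921), WT Dex replicate 1 was low at the Rps9 promoter (25.8 CPM, ratio 0.878), and WT Dex replicate 2 was low at the peak in Npas2 listed under Rpl31 (1.29 CPM, ratio 0.959).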

How the results depend on the processing

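The scaling of the libraries moved the promoter medians most. In KO IL4 the median of the 51 promoters was −0.077 with TMM on promoter peaks and −0.11 with loess offsets. In WT IL4 it was −0.17 by total counts, −0.024 (promoter peaks) and −0.069 (loess). Over the table's peaks alone the WT IL4 median was −0.27, but for the 26 promoters listed there, whose median in the main fit was −0.24. In KO Dex the median of the 51 was 0.02 (loess). It was 0.087, 0.072 and 0.072 in WT Dex by total counts, promoter peaks and loess, and −0.25, −0.091 and −0.154 for WT IL4 against Dex. Members called numbered 70 for KO IL4 with promoter peaks (107 in the report) and 92 for WT IL4 against Dex over table peaks only (141). The cause was not tested, except that the table holds fewer peaks. With loess offsets the WT IL4 value became positive at Rpl30 (0.025), Rps21 (0.052), Rpl13a (0.047) and the peak 8.78 kb from Rpl29 (0.006), and WT IL4 against Dex at Rps21 (0.065), Rpl13a (0.059) and Rpl22l1 (0.018). With TMM on promoter peaks it did so at Rpl22l1 (0.001 against vehicle, 0.018 against Dex) and that peak (0.019). Leaving out 1 library gave 18 to 35 calls for KO Dex (18 without KO Dex replicate 4), 0 to 1 for KO against WT with Dex (1 without KO Dex replicate 2 or 4) and 0 to 1 with vehicle. Same-numbered libraries of 1 genotype had correlated deviations of 0.00722 to 0.261, and those of unlike number −0.137 to 0.0694. Each library was nearest its own number in 4 of 4 cases within a genotype, and in 0 of 4 between genotypes. Same-numbered libraries thus appear tied within a genotype. As the values were not all above 0.1, the main fit took no pairs, so the p-values of the treatment comparisons leave this tie out. With a replicate block, which uses the same numbers for both genotypes, 38 KO and 36 WT promoters fell with IL4. A block within each genotype was not fitted. Weak peaks, at a median of 29.5 counts, are limited by depth.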
